A study of Caenorhabditis elegans with 12 samples.

Results

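The genes described here are the neighbours of *arcp-1* on chromosome III of *C. elegans*. They were chosen by position alone: each starts between bases 3250000 and 4260000 of chromosome III in the authors' WS255 loci and is listed in the deposited normalized counts, and *arcp-1* (F34D10.6) itself was left out. There were 209 such genes of 22542 in the count table, against 2674 on the rest of chromosome III, and 104 lay below and 105 above the start of *arcp-1*. RNA was sequenced from sorted BAG neurons of day 1 adults grown at 20 °C on *E. coli* OP50. The *arcp-1* mutants were of the genotype *arcp-1(db1082)* with *npr-1(ad609)* and *ynIs64[flp-17p::gfp]*, and the *npr-1* controls carried *npr-1(ad609)* and *ynIs64[flp-17p::gfp]* alone, with 6 libraries of each. Both groups therefore lack the neuropeptide receptor NPR-1 and both carry GFP under the promoter of the BAG-expressed peptide gene *flp-17*, by which the cells were sorted, so the comparison is between *arcp-1* alleles in an *npr-1* background. Each genotype was represented by a single strain.

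*arcp-1* encodes an ankyrin-repeat scaffold protein, and *db1082*, which places a premature stop codon in it, came from a mutagenesis screen. BAG neurons are ciliated head neurons that sense CO2. In a strain recovered from a mutagenized animal, DNA close to the selected mutation is separated from it by recombination less often than distant DNA, so other induced changes near the mutation tend to stay with it through outcrossing. A comparison of a mutant strain with its control therefore often includes a look at the genes linked to the mutation. The number of outcrosses of the sequenced strain is not given in the sources used here.

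The 6 *arcp-1* mutant libraries held between 374550 and 8683395 reads in genes, and the 6 control libraries between 540884 and 7594719, with 4 of the 12 libraries under 1000000. One read was worth between 0.294 and 6.40 normalized counts, so that low values are coarse in the shallow libraries. The 6 BAG markers were present in both genotypes, with a summed normalized count of 2350 to 14437 in *arcp-1* mutants and 2931 to 11957 in controls. RNA of other tissues was present as well. The 5 body wall muscle markers summed to between 25488 and 109495 in *arcp-1* mutants and between 26302 and 102881 in controls, and the 6 germline markers to between 692 and 2576 in *arcp-1* mutants and between 905 and 2602 in controls. The 5 hypodermis markers summed to between 6800 and 25557 in *arcp-1* mutants and between 10405 and 54478 in controls. Median sums in *arcp-1* mutants and controls were 56388 and 56819 for body wall muscle and 17341.5 and 14995 for hypodermis. Both lists were above the BAG markers, with 9072 and 9068. None of the tested markers passed the test between genotypes, but the coelomocyte and ASE neuron lists had 0 tested genes. The coelomocyte markers summed to a median of 35.3 in *arcp-1* mutants (0.882 to 181) and 2.68 in controls (0 to 25.5). Those of ASE neurons had medians of 1.51 and 9.61, and those of URX, AQR and PQR neurons 269 and 386. The part that other tissues play in the values below was not tested. In sorted pools of this kind, fewer cells of a type and less RNA per cell cannot be told apart.

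*arcp-1* itself, on the minus strand of chromosome III from 3747560 to 3759412, was lower in the mutants. Its normalized count had a lowest value of 704, a median of 2500 and a highest value of 4277 in *arcp-1* mutants, against 3288, 8177 and 12360 in controls. The genotypes overlapped, because the lowest control library fell below the highest mutant library. The log2 fold change was -1.76 ± 0.40 (SE, n = 6 each; limma, Benjamini-Hochberg adjusted p = 0.0308). The adjusted p was above 0.05 on TPM (0.0668), without the mean-variance trend (0.0870), with only libraries of at least 1000000 reads (0.136) and when any of 8 single libraries was left out (0.0531 to 0.0834), while the fold change stayed between -1.99 and -1.44 over all 12 such omissions.

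None of the neighbours of *arcp-1* passed the test between genotypes. Of the 209 genes, 152 had a CPM of 1 or higher in no fewer than 6 libraries and were tested with limma on log2(normalized count + 1), and 0 had an adjusted p under 0.05, against 201 of 12096 genes in the whole table (1.66%; 1.33% higher and 0.331% lower in *arcp-1* mutants). On the rest of chromosome III 15 of 1836 tested genes passed (0.817%), 11 higher and 4 lower in *arcp-1* mutants. At an unadjusted p under 0.05 there were 16 of 152 neighbours (10.5%), 10 with higher and 6 with lower levels in *arcp-1* mutants. The same share was 8.33% on the rest of chromosome III and 10.4% over the whole table, so the neighbours' share was above that of the rest of the chromosome and close to that of the table. Among genes whose mean reached 100 normalized counts it was 7 of 41 neighbours (17.1%), against 9.57% on the rest of chromosome III and 13.7% of all genes. edgeR's quasi-likelihood test on the recovered reads also called 0 neighbours, against 1.64% of the table. DESeq2 on the same reads called 4 of 150 neighbours with an adjusted p (2.67%), against 3.47% of the table, and these 4 genes are described below.

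Over all tested genes the sizes of the differences around *arcp-1* were close to those elsewhere. Among the more abundant genes their median size was somewhat larger, while their spread was not. The median log2 fold change of the 152 neighbours was 0.0019, with 76 above 0 and 76 below or at it, against a median of -0.05 on the rest of chromosome III and -0.02 over all genes tested. The median distance from 0, regardless of sign, was 0.28 for the neighbours, 0.31 for the rest of chromosome III and 0.37 over all genes. A difference of more than 2-fold in either direction was seen for 19 neighbours (12.5%), against 11.9% on the rest of chromosome III and 14.9% of all genes tested. For the 41 neighbours whose mean reached 100 normalized counts, the median distance from 0 was 0.24, against 0.17 for such genes on the rest of chromosome III and 0.21 over the table. The SD of their log2 fold changes was 0.36, against 0.40 and 0.56. More than 2-fold differences made up 2.44%, against 1.82% and 5.65%. Of these 41 neighbours, 26 had a log2 fold change above 0 (63.4%) and the median was 0.07, against 44.0% above 0 and a median of -0.04 on the rest of chromosome III. These shares and medians are descriptions without a test. The precision of single genes limits what could have been seen, because the median SE of a neighbour was 0.41 on the log2 scale. For 60 of the 152 neighbours (39.5%) the 95% interval of the fold change lay within 2-fold in both directions, and for 32 of these 41 (78%). The other 57 of the 209 genes were not tested, and their mean did not exceed 4.28 normalized counts.

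**Figure D1:**
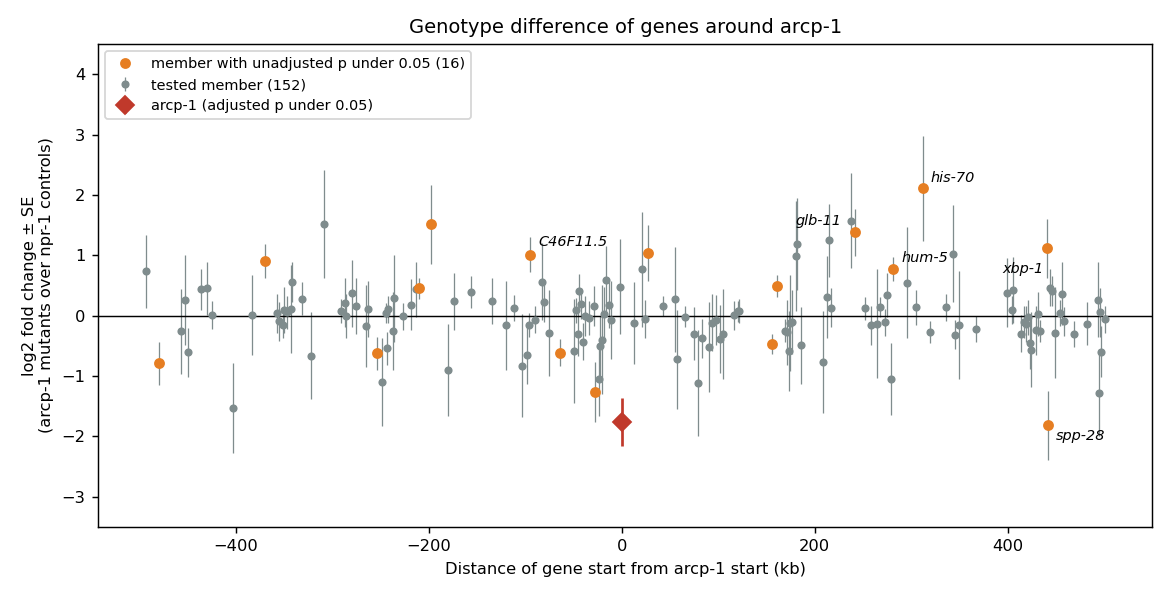
Log2 fold change (*arcp-1* mutants over *npr-1* controls, ± SE, 6 libraries each) of the 152 tested neighbours against the distance of their start from that of *arcp-1* in kb, with *arcp-1* as a diamond and the 16 neighbours with an unadjusted p under 0.05 in orange. *arcp-1* lies at -1.76, while the orange points are spread over both sides and both signs, 8 below and 8 above *arcp-1* on the chromosome.

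The nearest gene on each side of *arcp-1* had a difference smaller than its SE. On the low side lies *lin-48*, which encodes a zinc finger transcription factor, at 3745461 to 3747451 on the plus strand. Its locus ends 108 bases before that of *arcp-1* in the authors' annotation, and in a newer annotation exons of both overlap, so its counts, made without regard to strand, are uncertain. The normalized count of *lin-48* had a lowest value of 3.68, a median of 14.1 and a highest value of 32 in *arcp-1* mutants, against 0, 12.1 and 29.7 in controls. The ranges of the genotypes almost coincide. On the log2 scale the difference was 0.48 ± 0.79 (SE; limma adjusted p = 0.889), and its sign turned to -0.48 with only libraries of at least 1000000 reads.

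On the high side the nearest gene is C44F1.1, whose locus begins 965 bases beyond that of *arcp-1*. C44F1.1 was barely detected, with a lowest value of 0, a median of 3.62 and a highest value of 17.1 normalized counts in *arcp-1* mutants, against 1.92, 4.58 and 8.46 in controls. The mutant values enclose those of the controls. Its log2 fold change was -0.12 ± 0.68 (limma adjusted p = 0.977), and the sign was positive on recovered reads with edgeR (0.37) and DESeq2 (0.40).

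The genes that follow on the low side, F34D10.4, F34D10.3 and F34D10.8, start 10.96, 13.4 and 16.8 kb from the start of *arcp-1*. Their log2 fold changes were -0.08 ± 0.64, 0.18 ± 0.38 and 0.59 ± 0.56 (SE; limma adjusted p = 0.986, 0.919 and 0.789). The sign of F34D10.4 and F34D10.3 turned with only libraries of at least 1000000 reads (1.04 and -0.34).

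On the high side follow *gmeb-3*, a homolog of the glucocorticoid modulatory element-binding proteins, *lec-4*, a galectin, and *acy-3*, an adenylyl cyclase, which makes cyclic AMP. The normalized count of *gmeb-3* was between 0 and 66.8 in *arcp-1* mutants and between 0 and 10.1 in controls, and its log2 fold change was 0.77 ± 0.96 (limma adjusted p = 0.851). *lec-4* was far more abundant, with 211, 380 and 679 normalized counts in *arcp-1* mutants (lowest, median and highest) and 251, 347 and 632 in controls. Its values overlapped almost completely, with a log2 fold change of -0.05 and a 95% interval of -0.72 to 0.62.

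*acy-3*, which lies 27.3 kb from the start of *arcp-1* at 3774896 to 3786640 on the minus strand, is the nearest protein-coding gene with an unadjusted p under 0.05. Its normalized count had a lowest value of 19.2, a median of 26.8 and a highest value of 44.3 in *arcp-1* mutants, against 4.25, 15.6 and 27.8 in controls. All 6 mutant libraries were above the control median, but the genotypes overlapped. With a log2 fold change of 1.03 ± 0.47 (SE; limma adjusted p = 0.449; two-sided exact permutation p = 0.0368), *acy-3* was not past the threshold after adjustment.

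**Figure D2:**
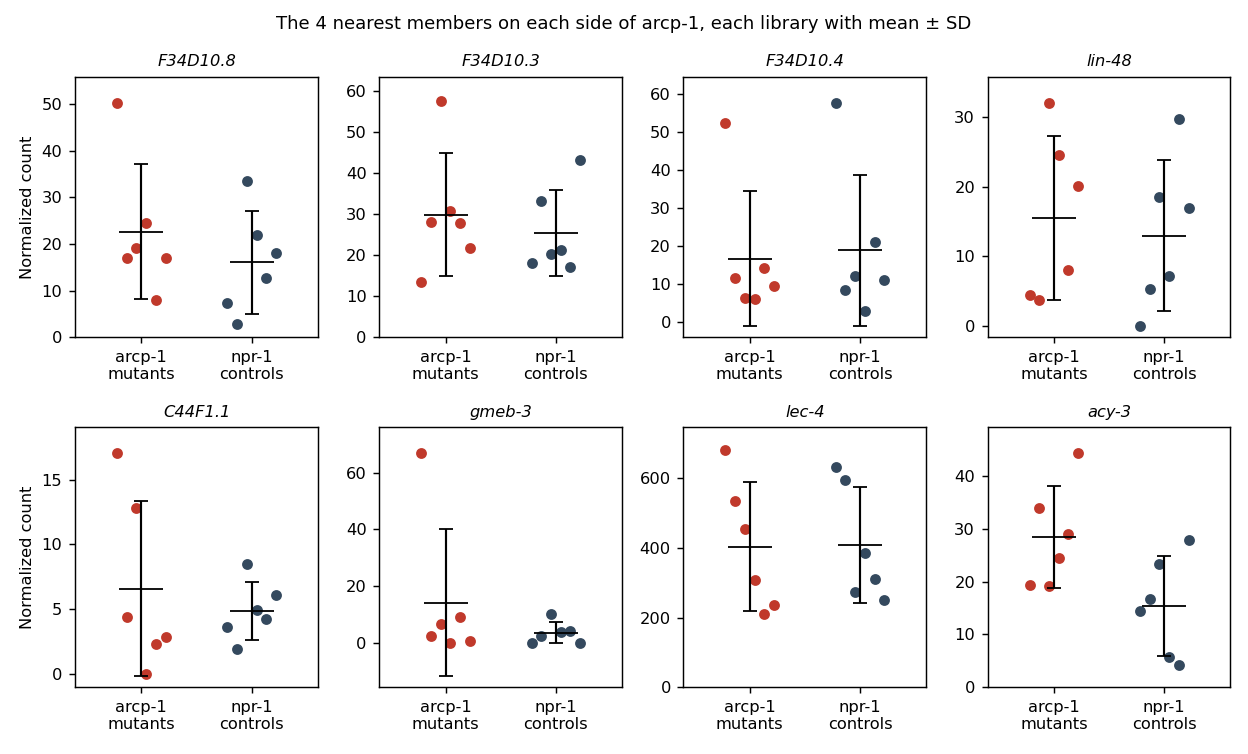
Normalized count per library (points, 6 per genotype) with mean ± SD (bars) for the 4 neighbours nearest to *arcp-1* on each side, *arcp-1* mutants left and *npr-1* controls right in each panel. The genotypes overlap in all 8 panels, among them *lec-4* (211 to 679 in *arcp-1* mutants, 251 to 632 in controls) and *acy-3* (19.2 to 44.3 in *arcp-1* mutants, 4.25 to 27.8 in controls).

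The smallest p among the neighbours belonged to *hum-5*, which encodes an unconventional myosin heavy chain and lies 282 kb from *arcp-1*, at 4029115 to 4036840 on the minus strand. Its normalized count had a lowest value of 193, a median of 230 and a highest value of 380 in *arcp-1* mutants, against 121.7, 131 and 187 in controls. *hum-5* was the only tested neighbour whose libraries did not overlap between genotypes, 1 of 152 (0.658%), against 1.69% on the rest of chromosome III and 1.95% over the whole table (1.29% higher in *arcp-1* mutants). The log2 fold change was 0.77 ± 0.20, a fold of 1.71 (SE, n = 6 each; limma adjusted p = 0.0674), and the two-sided exact permutation p of 0.00216 is the smallest that 924 assignments of the libraries allow. Its adjusted p was under 0.05 in 5 of 24 settings and ranged between 0.00697 and 0.254, the highest with only libraries of at least 1000000 reads.

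The genes that follow by p, apart from those the naming rule gives, are named after their values were seen. C46F11.5, 94.7 kb below *arcp-1*, had 72.1, 155 and 221 normalized counts in *arcp-1* mutants (lowest, median and highest), against 57.8, 61.3 and 106 in controls. Its libraries overlapped, although all 6 mutant libraries lay above the control median. Its fold change was 1.01 ± 0.28 on the log2 scale (limma adjusted p = 0.105; two-sided exact permutation p = 0.0108). C46F11.5 shares exon bases with *gsr-1*, the glutathione reductase gene on the other strand, so its counts are uncertain. *gsr-1* itself had a log2 fold change of -0.15 ± 0.20 (limma adjusted p = 0.863).

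*glb-11*, one of the globin genes, lies 242 kb from *arcp-1*. Its normalized count had a lowest value of 24.4, a median of 43.4 and a highest value of 121.6 in *arcp-1* mutants, against 9.58, 17.6 and 25.1 in controls. The lowest mutant library fell just below the highest control library, and 1 mutant library was far above the other 5. *glb-11* had a log2 fold change of 1.38 ± 0.39, 2.6 times the control level (limma adjusted p = 0.112; two-sided exact permutation p = 0.00433).

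*hecw-1*, which encodes a HECT-type ubiquitin ligase, is 370 kb below *arcp-1* and shares exon bases with *elmd-1*, so its counts are uncertain. It had 157, 188 and 370 normalized counts in *arcp-1* mutants (lowest, median and highest), against 50.5, 125 and 161 in controls. The genotypes touched at their edges, with a log2 fold change of 0.91 ± 0.28 (limma adjusted p = 0.163; two-sided exact permutation p = 0.00433). The beta-integrin gene *pat-3* and the beta-tubulin gene *ben-1* had smaller differences in the same direction, with log2 fold changes of 0.49 ± 0.18 and 0.45 ± 0.18 (limma adjusted p = 0.288 and 0.327).

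Lower values in *arcp-1* mutants were seen for *spp-28*, *mmcm-1* and *npr-15* among the 9 smallest p. *mmcm-1* encodes methylmalonyl-CoA mutase, a mitochondrial enzyme of propionate breakdown, and had 142, 170 and 179 normalized counts in *arcp-1* mutants (lowest, median and highest), against 177, 228 and 268 in controls. Only the edges of the genotypes overlapped, and the difference was -0.47 ± 0.16 on the log2 scale (limma adjusted p = 0.234; two-sided exact permutation p = 0.00649). *npr-15*, which encodes a neuropeptide receptor family protein, had 64.4, 85.5 and 145 normalized counts in *arcp-1* mutants, against 107, 142 and 153 in controls, with a log2 fold change of -0.61 ± 0.22 (limma adjusted p = 0.277).

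*spp-28*, named as a saposin-like protein gene, was near the limit of detection, with at most 4.43 normalized counts in *arcp-1* mutants and between 4.25 and 7.22 in controls. Its log2 fold change was -1.82 ± 0.57 (limma adjusted p = 0.171). A read in the shallowest library was worth 6.40 normalized counts, which is more than the median control value of 5.53.

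**Figure D3:**
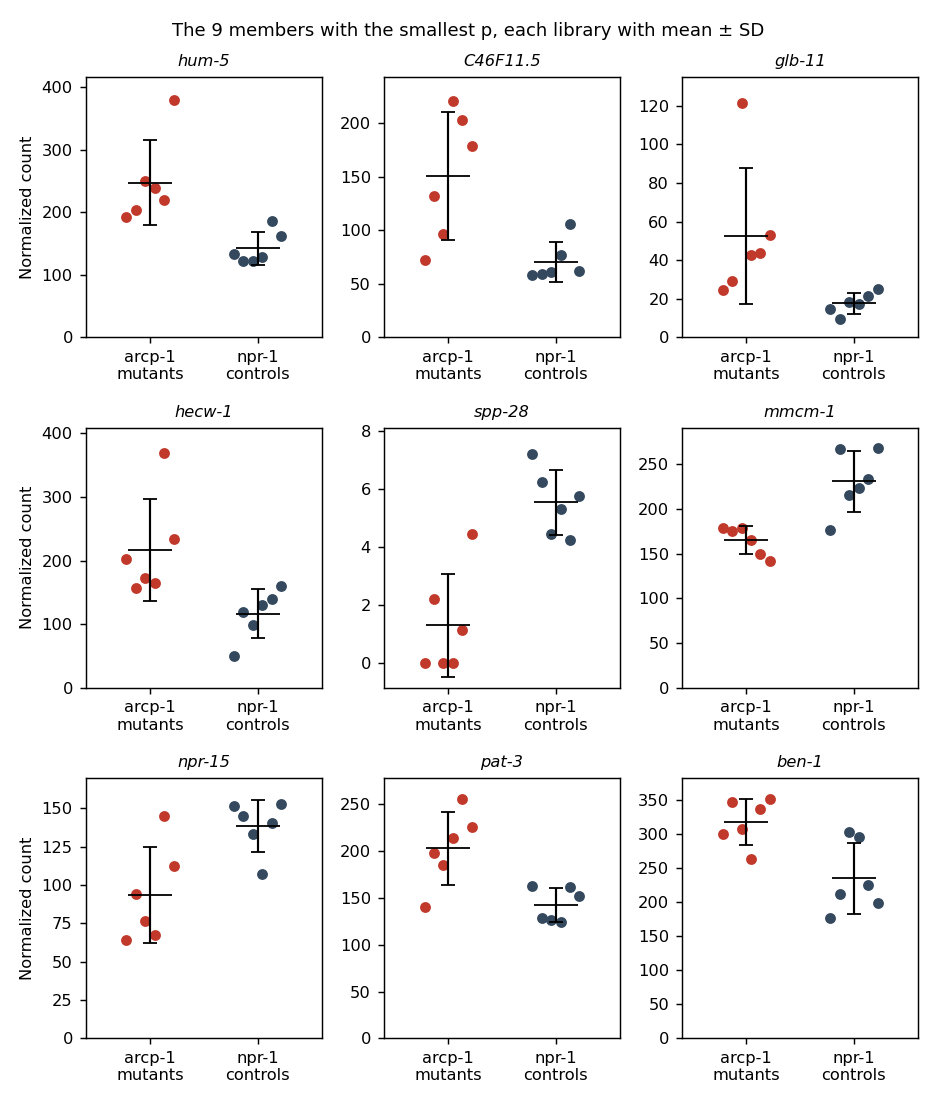
Normalized count per library (points, 6 per genotype) with mean ± SD (bars) for the 9 neighbours with the smallest p, *arcp-1* mutants left and *npr-1* controls right in each panel. Only the panel of *hum-5* shows no overlap (193 to 380 in *arcp-1* mutants, 121.7 to 187 in controls), and no gene shown had an adjusted p under 0.05.

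The largest fold changes came from genes with few reads. The highest was that of *his-70*, a histone H3-like gene, at 2.11 ± 0.87 on the log2 scale (limma adjusted p = 0.371; two-sided exact permutation p = 0.0519). Its normalized count had a lowest value of 3.22, a median of 8.68 and a highest value of 71.2 in *arcp-1* mutants, against 0, 1.70 and 9.67 in controls, where 3 of 6 libraries held a read. The mutant range is wide and overlaps that of the controls.

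Y1A5A.1 (1.57 ± 0.79), *spe-41* (1.51 ± 0.90), a TRP channel gene known from sperm, and C54C6.5 (1.51 ± 0.66) came next on the log2 scale, ahead of *glb-11*. Their limma adjusted p values were 0.527, 0.630 and 0.419. The normalized count of *spe-41* was between 6.83 and 228 in *arcp-1* mutants, against 0 to 22.7 in controls, and the mutant median of 13.5 was close to the control median of 12.3. The highest values of *spe-41* and *his-70* came from *arcp-1* mutant replicate 1, the deepest library. Without it the log2 fold changes were 0.86 for *spe-41*, 1.59 for *his-70* and 1.04 for Y1A5A.1, while C54C6.5 (1.69) and *glb-11* (1.55) rose.

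At the other end stood *spp-28*, followed by *gei-1* (-1.53 ± 0.75), *mrpl-21*, a mitochondrial ribosomal protein gene (-1.28 ± 0.72), the pseudogene WBGene00007578 (-1.26 ± 0.50) and *cnnm-5*, of the CNNM metal transporter family (-1.12 ± 0.89). Their limma adjusted p values were 0.509, 0.603, 0.342 and 0.731. *gei-1* had no read in 1 of 6 mutant libraries and 35.6 normalized counts in the highest, against 17.3 to 86.6 in controls. *cnnm-5*, which shares exon bases with *amx-1* and is uncertain, had reads in 3 of 6 mutant libraries and in all 6 controls, and its fold change was positive with edgeR (0.08) and with only libraries of at least 1000000 reads (0.26).

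The genes around *arcp-1* spanned a broad range of levels. Per length, 12 of the 209 had a mean above 100 TPM, 92 were between 10 and 100 TPM and 105 were under 10 TPM. Of the 209, 171 are protein coding, and 145 of these were tested. Among 35 non-coding genes and pseudogenes, 6 were tested.

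The most abundant was *xbp-1*, the transcription factor of the unfolded protein response, at 1248 ± 485 TPM in *arcp-1* mutants and 924 ± 243 TPM in controls (SD, n = 6 each). In normalized counts *xbp-1* had 1744, 2733 and 4776 in *arcp-1* mutants (lowest, median and highest), against 1423, 2219 and 2767 in controls. The highest value came from 1 mutant library well above the rest, and 5 of 6 mutant libraries exceeded the control median. For *xbp-1* the log2 fold change was 0.41 ± 0.25 with a 95% interval of -0.11 to 0.93 (limma adjusted p = 0.642).

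The beta-tubulin gene *tbb-2* was at 1069 ± 126 TPM in *arcp-1* mutants and 991 ± 203 TPM in controls. Of the ribosomal protein genes, *rpl-16* was at 1024 ± 152 TPM in *arcp-1* mutants and 1015 ± 217 TPM in controls, and *rpl-3* at 1004 ± 154 TPM in *arcp-1* mutants and 972 ± 192 TPM in controls. The 95% intervals of the log2 fold changes were -0.22 to 0.51 for *tbb-2*, -0.31 to 0.39 for *rpl-16* and -0.30 to 0.44 for *rpl-3*, so a 2-fold difference lay outside all of them, and the sign of each turned under quantile normalization.

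Below these came *cfap-20*, a cilia and flagella associated protein gene, *lec-4*, the protein disulfide isomerase gene *pdi-1* and R74.8. *cfap-20* was the most variable of them, with 123, 500 and 844 normalized counts in *arcp-1* mutants (lowest, median and highest), against 134, 381 and 437 in controls, and a log2 fold change of 0.44 ± 0.45 (limma adjusted p = 0.813). *pdi-1* and R74.8 had log2 fold changes of 0.09 ± 0.20 and -0.10 ± 0.24 (limma adjusted p = 0.931 and 0.936).

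**Figure D4:**
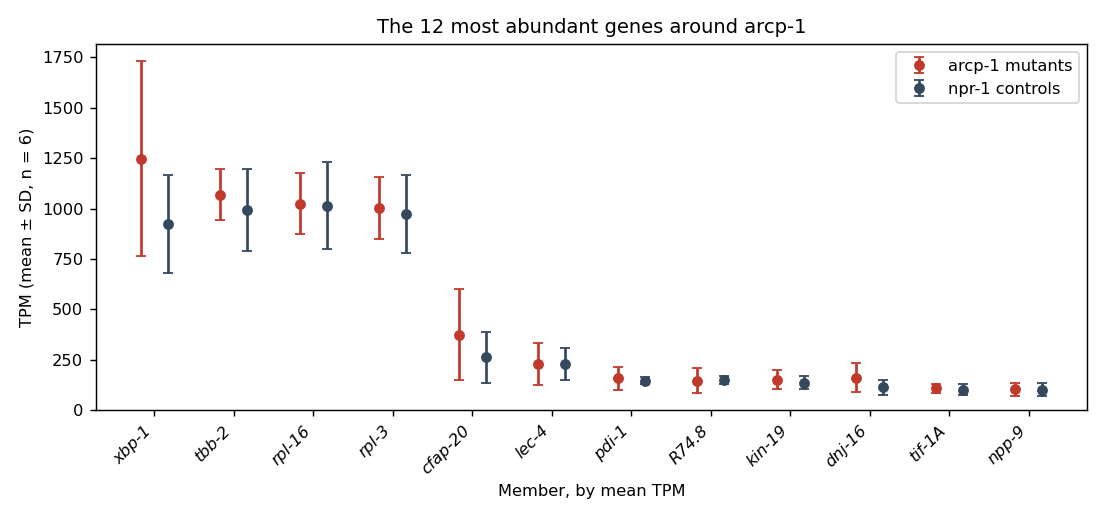
Mean TPM (± SD, 6 libraries per genotype) of the 12 neighbours with a mean above 100 TPM, *arcp-1* mutants left of *npr-1* controls for each gene. The error bars of the genotypes overlap for all 12, from *xbp-1* (1248 ± 485 in *arcp-1* mutants, 924 ± 243 in controls) to *npp-9* (105 ± 33 in *arcp-1* mutants, 102.5 ± 31 in controls).

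Sorted by role, no group of neighbours had a member past the threshold. Of 10 tested genes of protein synthesis, 0 passed, with a median log2 fold change of -0.09 and values between -1.28 (*mrpl-21*) and 0.18 (*rpl-37*). Of 6 genes of the cytoskeleton, motors and cilia, 0 passed, with a median of 0.35 and a highest value of 0.77 (*hum-5*). An unadjusted p under 0.05 was found for 2 of these 6 (33.3%), each higher in *arcp-1* mutants, against 10.4% over the whole table. It was found for 0 of the genes of protein synthesis and 0 of those of protein folding. Of the groups described below, it was found for 1 of 3 genes of adhesion, 1 of 8 of metabolism and 1 of 15 of transcription. For kinases, phosphatases and small GTPases it was 0 of 10, and for RNA processing 0 of 6. The 8 genes of protein folding and the endoplasmic reticulum had a median of 0.03, between -0.59 for the cyclophilin *cyn-9* and 0.46 for the DnaJ-domain gene *dnj-16*, and 0 passed. Groups of this size are given by their counts and medians only. With 1.66% called over the whole table, groups this small would mostly hold 0 called genes. Their counts of 0 therefore say nothing about roles.

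Genes grouped under neuronal signalling, receptors and channels were spread to both sides. Of 12 tested, 0 passed, and the median log2 fold change was 0.03. An unadjusted p under 0.05 was found for 4 (33.3%), against 10.4% over the whole table. Of these 4, 3 were higher in *arcp-1* mutants (*glb-11*, *hecw-1* and *acy-3*) and 1 was lower (*npr-15*). The group was drawn up with earlier results of these data known, and it holds a globin gene (*glb-11*) and a ubiquitin ligase gene (*hecw-1*). Its share is therefore no result about neuronal signalling. *unc-79*, which encodes a subunit of the sodium leak channel complex, had 289, 461 and 537 normalized counts in *arcp-1* mutants (lowest, median and highest), against 412, 532 and 587 in controls. Its values overlapped, with a log2 fold change of -0.27 ± 0.19 (limma adjusted p = 0.695). The ERG-type potassium channel gene *unc-103* was at -0.22 ± 0.21, and its exons overlap those of C30D11.2. *tir-1*, the homolog of the axon degeneration factor SARM1, was at 0.07 ± 0.20, and the phosphatidylinositol transfer protein gene *pitp-1* at -0.01 ± 0.23.

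Among 10 tested genes of kinases, phosphatases and small GTPases, 0 passed and the median log2 fold change was 0.09. The ERK gene *mpk-1* was at -0.31 ± 0.21 and the casein kinase 1 alpha gene *kin-19* at 0.14 ± 0.22. Of 15 genes of transcription, chromatin and DNA, 0 passed, with a median of 0.12. *dpy-27*, of the dosage compensation complex, had a 95% interval of -0.40 to 0.36, and *wdr-5.1*, of the histone H3 lysine methyltransferase complex, one of -0.34 to 0.73.

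Of 6 genes of RNA processing and small RNA pathways, 0 passed, with a median log2 fold change of -0.09. The Argonaute gene *hrde-1*, which acts in germline nuclear RNA interference, was the most variable neighbour among the 41 whose mean reached 100 normalized counts. Its normalized count was between 18.4 and 369 in *arcp-1* mutants and between 43.9 and 303 in controls, a coefficient of variation of 137% in *arcp-1* mutants and 93.1% in controls. Of 10 genes of metabolism and redox, 8 were tested and 0 passed, with a median of -0.27 between *lias-1*, the lipoic acid synthase gene (-0.54 ± 0.28), and *glod-4* (0.42 ± 0.54). The 3 genes of adhesion and extracellular matrix were *pat-3*, *lec-4* and the astacin metalloprotease gene *toh-1*, and 0 passed.

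The summed level of the neighbours differed slightly. The 209 genes summed to 22616 ± 1086 normalized counts in *arcp-1* mutants (SD, n = 6; 21832 to 24758), against 20622 ± 1096 in controls (SD, n = 6; 18582 to 21533), a ratio of 1.097, and the genotypes did not overlap. The largest share of that difference of 1993 normalized counts came from *xbp-1* (783), followed by *tbb-2* (273), *cfap-20* (154), *dnj-16* (136) and *rpl-3* (113). Without *xbp-1*, 5 of 6 mutant libraries exceeded the highest control, with a ratio of 1.07. Without *xbp-1*, *tbb-2*, *rpl-3* and *rpl-16*, 2 of 6 did. As a percentage of all reads in genes the neighbours took 0.835 to 0.967% in *arcp-1* mutants and 0.615 to 0.909% in controls, which overlapped. The sum over the rest of chromosome III was 255665 ± 9026 normalized counts in *arcp-1* mutants and 258828 ± 36700 in controls, which overlapped too. Over all genes the sum was 2513340 ± 84494 in *arcp-1* mutants and 2543550 ± 455913 in controls, a ratio of 0.988, with overlap. Sums of other windows were not computed, so how often such a sum separates the genotypes is not known. The sum is given as a description, without a test.

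Along the chromosome, called genes lay outside the neighbourhood of *arcp-1*. The share with an unadjusted p under 0.05 was higher within 500 kb than beyond on chromosome III, but close to the 10.4% of the whole table. Within 100 kb of its start 0 of 40 tested genes passed and 4 had an unadjusted p under 0.05, from 100 to 250 kb these were 0 and 5 of 39, and from 250 to 500 kb 0 and 7 of 72, so that the unadjusted shares were 10%, 12.8% and 9.72%. Further out, 0 of 154 genes passed from 500 kb to 1 Mb, 4 of 298 from 1 to 2 Mb (1.34%) and 11 of 1385 beyond 2 Mb (0.794%). The 4 from 1 to 2 Mb were all higher in *arcp-1* mutants, and of the 11 beyond 2 Mb 7 were higher and 4 lower. There the unadjusted p was under 0.05 for 8 (5.19%), 26 (8.72%) and 119 genes (8.59%). The neighbours below and above *arcp-1* each included 8 genes with an unadjusted p under 0.05, of 73 and 79 tested.

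Cut into windows of the same width of 1010 kb, chromosome III had 14 others, with between 20 and 233 tested genes. Of these, 4 held 0 called genes, 7 held 1, and none held more than 3. The share of genes with an unadjusted p under 0.05 was between 4.2 and 11.9% in them, and the 10.5% around *arcp-1* lay inside that range. The median log2 fold change was between -0.15 and 0.0027 in the other windows, and the 0.0019 around *arcp-1* lay inside that range as well. By chromosome, the share called was 0.804% on III, against 0.9% on I, 1.54% on II, 1.91% on IV, 2.47% on V and 2.41% on X.

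**Figure D5:**
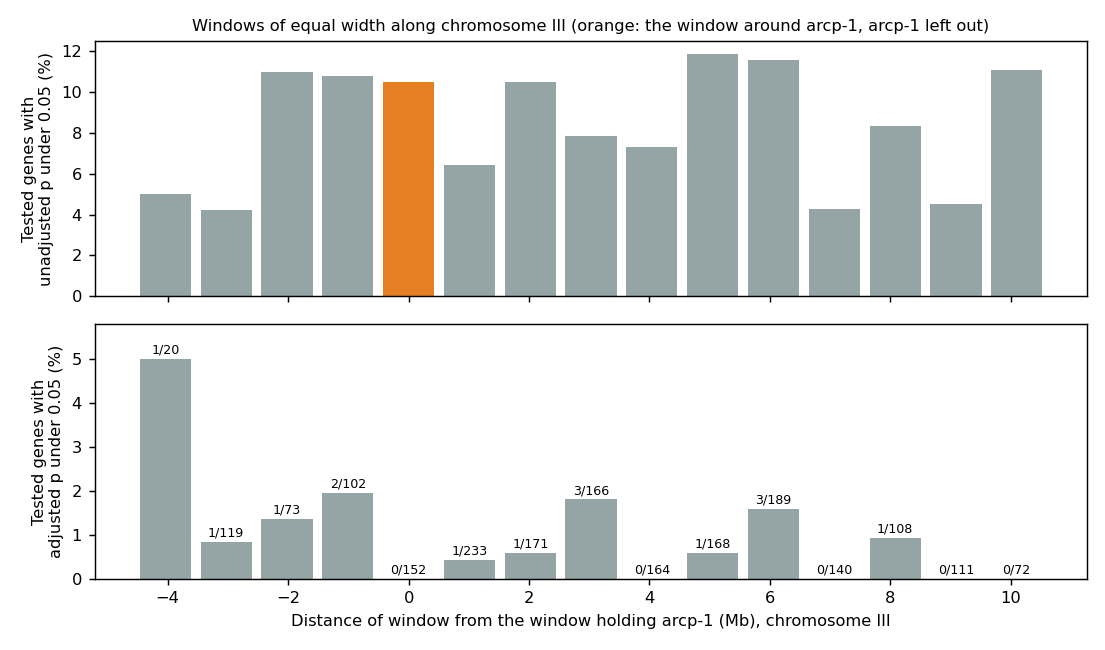
Share of tested genes with an unadjusted p under 0.05 (top) and with an adjusted p under 0.05 (bottom, with the called and tested genes above each bar) in windows of 1010 kb along chromosome III, against the distance in Mb from the window around *arcp-1*, which is in orange and leaves out *arcp-1*. The window around *arcp-1* stands at 10.5% and 0 of 152, and the others lie between 4.2 and 11.9% and hold 0 to 3 called genes.

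The called genes of chromosome III outside the neighbourhood are given by their extremes. The 3 with the largest log2 fold change were *gpa-17*, a G protein alpha subunit gene (4.61), C35D10.3 (4.55) and *fbxa-42*, an F-box gene (4.16), which start 1161, 1121 and 1488 kb from the start of *arcp-1*. The lowest fitted values were those of *pqn-8* (-3.11), K04C2.7 (-2.71) and Y75B8A.39 (-2.46), which start 6249, 3133 and 8566 kb away, and *pqn-8* shares exon bases with C05B5.4. *pqn-8* had 1 read in all mutant libraries together, so its fitted value depends on the pseudocount and is no bound. No called gene of chromosome III other than *arcp-1* started within 1 Mb of it.

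Some settings called a few neighbours, and in each of these the share stood below that of the table and above that of the rest of chromosome III. Restricting the test to means from 100 normalized counts up called 1 of 41 (2.44%: *hum-5*) against 3.43% of the table and 1.37% of the rest of chromosome III. Library weights called 5 of 152 (3.29%: C46F11.5, *glb-11*, *hum-5*, *mmcm-1* and *pat-3*) against 4% of the table and 2.51% of the rest of chromosome III. DESeq2 called the first 4 of these (2.67%), against 2.49% of the rest of chromosome III. Leaving out *arcp-1* mutant replicate 1 gave 3 of 152 (1.97%: C46F11.5, *glb-11* and *hum-5*) against 2.72% of the table and 1.47% of the rest of chromosome III, and no other single library changed the count of 0.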

How the data were processed

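Normalized counts and TPM of 12 Smart-seq2 libraries (no molecular identifiers) were analysed. Per the paper, ribosomal reads were removed with Bowtie2, reads trimmed with Trim Galore, mapped with STAR to WS255 and counted with HTSeq without strand. The deposited signal values are counts that the authors divided by DESeq2 size factors. The deposited TPM were computed by the authors and used for levels. The authors' table gave the loci; its comparison columns (group means, log2 fold changes, test statistic, p-value and q-value) were not used. Reads were recovered from the steps of the values (100% whole, tolerance 0.001).

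The genotypes were compared with limma 3.58.1 in R 4.3.3 (mean-variance trend) on log2(normalized count + 1), for the 12096 genes whose CPM was 1 or higher in no fewer than 6 libraries, at a Benjamini-Hochberg adjusted p under 0.05. A fold change on this scale understates that of low genes. Single genes had two-sided exact permutation tests. edgeR 4.0.16 and DESeq2 1.42.0 on recovered reads, pseudocounts of 0.1 and 10, other filters, TPM, quantile normalization, no trend, library weights, a replicate block, other windows and leaving out each library were alternatives. The models were also run on simulated counts with changes larger than most seen here, which does not show how small a difference they find. Libraries of at least 1000000 reads were chosen after seeing the data. Intervals cover the spread between libraries.

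Of the 209 members, 206 were found in the Ensembl WBcel235 annotation, which gave biotypes and shared exons (49 members), and 72 had the same position there, so positions are those of WS255. Named members were those without overlap between genotypes, the 5 largest fold changes in each direction, the 8 with the highest TPM and the 4 nearest on each side. Members followed from position alone, while the window, role groups and lists were chosen with earlier results of these data known.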

Additional observations from a re-analysis of the deposited data

Results flagged for a closer look

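Of 56 sets of 6 libraries checked for a single library far from the others, 3 had one, and chance gives about 1 in 20. The mitochondrial ribosomal protein gene *mrpl-21* had 0 reads in *arcp-1* mutant replicate 3, while the other 5 mutant libraries were between 4.22 and 5.34 on the log2(normalized count + 1) scale. Over the omissions of single libraries its log2 fold change was between -1.54 and -0.47. *gei-1* had 0 reads in *arcp-1* mutant replicate 4, against 3.4 to 5.19 in the other 5, and its log2 fold change over the omissions was between -1.85 and -0.81. These libraries were the shallowest, with 374550 reads in replicate 3 and 396502 in replicate 4, and the part of depth was not tested. The genes around *arcp-1* took 0.615% of the reads of *npr-1* control replicate 1, against 0.821 to 0.909% in the other 5 control libraries. That library had the highest control sum over all genes, 3436620 normalized counts against a control median of 2372200. Its sum over the neighbours lay inside the control range of 18582 to 21533, so the low share came with a high total. Leaving out that library left the count of called neighbours at 0.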

How the results depend on the processing

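The called neighbours, genes of the rest of chromosome III and genes of the whole table numbered 1, 6 and 99 for means from 100 normalized counts up (where the neighbours' median log2 fold change was 0.071), 4, 44 and 404 with DESeq2, and 5, 46 and 484 with library weights. They were 0, 5 and 110 with only libraries of at least 1000000 reads, and leaving out single libraries gave 0 to 3, 9 to 27 and 124 to 329, the highest each without *arcp-1* mutant replicate 1. The rest of chromosome III had 9 called genes with a pseudocount of 0.1 and 8 without a filter. Windows of 250 kb or 1 Mb on each side, or leaving out overlapping loci, also gave 0 called neighbours.

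The log2 fold change of *arcp-1* kept its sign under all 24 alternatives, but its adjusted p was above 0.05 on TPM (-1.77), without the trend (-1.76) and in libraries of at least 1000000 reads (-1.98); omissions gave -1.99 to -1.44. With the replicate number as a block, 2 neighbours (C46F11.5 and *hum-5*), 23 other genes of chromosome III and 291 of the table passed (1.32%, 1.25% and 2.41% of those tested). The limma adjusted p of *arcp-1* was 0.00021 with that block. The deviations of same-numbered libraries correlated at 0.04, 0.32, 0.05, 0.05, 0.07 and 0.13. The own number ranked 3, 1, 2, 1, 2 and 2 among the 6, so 2 of 6 numbers matched best with their own. The labels give only a number, and this check cannot decide whether same-numbered libraries were prepared together. No pairing was used in the main fit.

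Of the 26 named neighbours, 14 kept the sign of their log2 fold change under every alternative run, and 17 were below a mean of 100 normalized counts and missing from that alternative. Quantile normalization turned *tbb-2* (-0.0058), *rpl-16* (-0.077), *rpl-3* (-0.082) and F34D10.4 (0.064). edgeR turned *cnnm-5* (0.082), R74.8 (0.019), F34D10.4 (0.17) and C44F1.1 (0.37), and DESeq2 R74.8 (0.0028), F34D10.4 (0.069) and C44F1.1 (0.40). Library weights turned R74.8 (0.11), F34D10.4 (0.29) and *gmeb-3* (-0.14). C44F1.1 also turned with a pseudocount of 10 (0.075) and on TPM (0.034). Libraries of at least 1000000 reads turned *cnnm-5* (0.26), *rpl-16* (-0.0093), *lec-4* (0.048), *lin-48* (-0.48), F34D10.4 (1.04), F34D10.3 (-0.34) and C44F1.1 (0.019). Over the omissions the values were -0.012 to 0.12 for *rpl-16*, -0.23 to 0.11 for *lec-4*, -0.076 to 0.16 for *pdi-1*, -0.26 to 0.10 for R74.8, -0.16 to 0.83 for *lin-48*, -0.48 to 0.33 for F34D10.4, -0.029 to 0.37 for F34D10.3 and -0.49 to 0.35 for C44F1.1. None of these genes was called in any setting, and the cause was not tested.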
